A study of Mus musculus with 9 samples.

Results

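The Hox genes are the positional homeobox genes of the 4 Hox clusters, and they are described here across colonic mucosa of 3 mouse genotypes. Members were chosen by symbol alone, as Hoxa, Hoxb, Hoxc or Hoxd followed by a number. This gave 33 genes with 48 probe sets of their own, among 18193 genes and 34945 probe sets that the platform annotation ties to 1 gene. Of these, 16 Hox genes were bright enough to be tested, among 11273 genes tested.

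Expression was measured on 9 Affymetrix arrays, each hybridised with total RNA from the colonic mucosa of male C57BL/6 mice aged 6 weeks. The groups were 3 wild-type arrays (WT), 3 arrays of the genotype Gas-/- (GasKO), and 3 arrays of the genotype hGas transgenic (hGAS). The series title refers to progastrin, the precursor peptide made from the gastrin gene. The labels name neither the promoter that drives the transgene nor its line, and they do not say that the replicates of a group were separate mice. The p-values then describe only how far these samples scatter. Values are on a log2 scale after background correction from probe sequence, so a step of 1 is a doubling of signal. Values from different probe sets were not compared as levels.

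Hox genes encode homeodomain transcription factors that give cells of the trunk, limbs and gut their position along the body axis. Each cluster is a row of genes numbered by paralog group, and genes of low number are as a rule switched on earlier and further forward than genes of high number. In the gut, the highest numbers mark the hindgut, which forms the distal colon. Hox proteins bind DNA together with cofactors of the Pbx and Meis families, and Polycomb and Trithorax complexes hold the clusters silent or active.

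Arrays of the same genotype correlated at 0.990 to 0.996 across the genes tested, and the GasKO arrays stood apart, at 0.970 to 0.983 with the arrays of the other groups. Gast, the gene removed in GasKO, gave background signal throughout (log2 mean ± SD of 3 arrays): WT arrays had 1.96 ± 0.02, GasKO arrays 2.08 ± 0.08 and hGAS arrays 1.95 ± 0.01. These values cannot serve as a check of either genotype. The difference between the 3′ and 5′ control probe sets of Gapdh was -0.176 to -0.138 in WT, -0.117 to -0.0885 in GasKO and -0.154 to -0.0683 in hGAS, so all GasKO arrays lay above all WT arrays on this measure of RNA quality. For actin the same difference was 0.763 to 0.889 in WT, 0.872 to 0.938 in GasKO and 0.879 to 0.938 in hGAS. On actin, then, GasKO and WT arrays overlapped. The part of RNA quality in the Hox values was not tested.

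The promoter windows of 3 HoxA genes are shown because Hoxa7 and Hoxa11 were called together in GasKO against WT, and Hoxa7 and Hoxa13 in hGAS against GasKO. Each window runs from 250 bases before the annotated start to 50 bases after it, on the minus strand, from RefSeq on build GRCm38.p6. The positions are chr6:52218524-52218823 for Hoxa7, chr6:52245761-52246060 for Hoxa11 and chr6:52260831-52261130 for Hoxa13. Capitals mark matches on either strand to TTTATG or TTTATA, the core letters bound by caudal-type factors such as Cdx2, or to AGGTCA, the core letters of nuclear receptor sites.
Hoxa7: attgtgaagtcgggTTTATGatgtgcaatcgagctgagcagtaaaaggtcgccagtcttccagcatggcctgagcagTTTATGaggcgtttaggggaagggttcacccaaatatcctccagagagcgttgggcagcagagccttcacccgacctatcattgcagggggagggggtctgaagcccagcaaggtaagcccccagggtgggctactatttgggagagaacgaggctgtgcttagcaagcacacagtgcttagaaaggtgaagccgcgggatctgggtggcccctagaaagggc
Hoxa11: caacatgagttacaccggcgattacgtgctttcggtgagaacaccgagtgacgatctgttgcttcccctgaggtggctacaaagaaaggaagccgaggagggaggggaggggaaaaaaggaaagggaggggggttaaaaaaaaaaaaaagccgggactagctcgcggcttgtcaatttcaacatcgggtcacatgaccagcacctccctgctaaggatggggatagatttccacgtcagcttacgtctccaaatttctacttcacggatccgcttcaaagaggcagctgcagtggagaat
Hoxa13: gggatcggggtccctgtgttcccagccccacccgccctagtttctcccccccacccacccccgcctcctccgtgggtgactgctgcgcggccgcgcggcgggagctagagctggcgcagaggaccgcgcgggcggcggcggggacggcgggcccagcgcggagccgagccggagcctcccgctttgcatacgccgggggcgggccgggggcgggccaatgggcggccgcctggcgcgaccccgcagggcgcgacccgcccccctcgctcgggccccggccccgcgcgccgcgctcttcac
The Hoxa7 window held TTTATG 2 times and the Hoxa11 and Hoxa13 windows held neither TTTATG nor TTTATA. Over all 32851 windows of this length, 11.9% held TTTATG, 13.6% held TTTATA, which can overlap its own reverse complement, and 16.3% held AGGTCA. Windows were listed for 22 Hox genes, 24 windows in all, and 5 of them held TTTATG, 4 held TTTATA and 7 held AGGTCA. The Hoxa13 window had a GC content of 81.0%, against 55.7% for Hoxa7, 51.0% for Hoxa11 and a median of 52.7% over all windows. A match describes the letters only.

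The Hox genes above background came from 3 of the 4 clusters. A gene was tested if at least 3 of the 9 arrays reached a log2 value of 4, and the probe set with the highest mean stood for each gene. This admitted 7 HoxA genes (Hoxa3, Hoxa5, Hoxa7, Hoxa9, Hoxa10, Hoxa11 and Hoxa13), 4 HoxB genes (Hoxb3, Hoxb6, Hoxb9 and Hoxb13) and 5 HoxD genes (Hoxd8, Hoxd9, Hoxd10, Hoxd11 and Hoxd13). All 11 HoxC probe sets, of 7 genes, stayed between 1.69 and 3.11 on every array. The other genes that did not pass were Hoxa2, Hoxa4, Hoxb1, Hoxb2, Hoxb4, Hoxb5, Hoxb7, Hoxd1, Hoxd3 and Hoxd12. The 23 probe sets of the 17 genes that did not pass lay between 1.69 and 5.72, the highest being Hoxb5 on an hGAS array. Hoxb8 and Hoxd4 had only probe sets shared with a neighbour, and Hoxa6, Hoxc11 and Hoxc12 were not analysed here. Hoxb13 and Hoxd13, both hindgut genes of the last paralog group, were well above background on all 9 arrays, with Hoxb13 between 11.5 and 12.3 and Hoxd13 between 8.80 and 10.03.

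In GasKO mucosa, Hoxa7 and Hoxa11 rose against WT. Hoxa7, a homeobox gene of the middle of the HoxA cluster (probe set 1449499_at), measured 6.60, 6.36 and 6.84 on the WT arrays, 7.37, 7.37 and 7.07 on the GasKO arrays and 6.90, 6.47 and 6.86 on the hGAS arrays. All GasKO arrays lay above all WT arrays, and hGAS arrays overlapped WT. The rise was log2 0.67 (SE 0.155), or 1.59-fold, with an adjusted p of 0.0210 in limma with Benjamini-Hochberg adjustment over all genes tested. Hoxa11, a posterior gene known for its part in limb and kidney development (1420414_at), measured 6.18, 6.32 and 6.29 in WT, 6.65, 6.85 and 6.58 in GasKO and 6.55, 6.74 and 6.55 in hGAS. Both mutant groups lay wholly above WT. The GasKO rise of Hoxa11 was log2 0.43 (SE 0.0952), or 1.35-fold (adjusted p = 0.0172), while hGAS stood 0.35 above WT without passing the test (adjusted p = 0.130).

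Among all genes tested, 12.1% were called at an adjusted p under 0.05 in GasKO against WT, 6.64% as higher and 5.48% as lower. The Hox count of 2 of 16, both higher and 0 lower, is near that background. At an unadjusted p under 0.05, limma gave 3 Hox genes higher and 0 lower, against 25.9% of all genes. In 4 Hox genes (Hoxa7, Hoxa11, Hoxa13 and Hoxb3) all GasKO arrays lay above all WT arrays, which held for 16.1% of all genes, and in 0 Hox genes they lay below, against 15% of all genes. The Hoxa11 call was lost without WT replicate 1 (adjusted p = 0.0588) and held when any other array was left out. The Hoxa7 call was lost without WT replicate 1 (adjusted p = 0.057), WT replicate 2 (0.0731), GasKO replicate 1 (0.0832) or GasKO replicate 2 (0.0686), with the difference above 0 in each case.

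The remaining HoxA genes stayed within smaller distances of WT. Hoxa13, which acts in hindgut and urogenital development (1422336_at), measured 5.29, 5.44 and 5.50 in WT and 5.68, 5.88 and 5.63 in GasKO, with no overlap, a difference of 0.32 and an adjusted p of 0.177. Hoxa9 was listed between 10.1 and 10.7 over all 9 arrays and stood 0.25 higher in GasKO (adjusted p = 0.216). Hoxa3, Hoxa5 and Hoxa10 differed from WT by 0.02, 0.09 and -0.13, with adjusted p of 0.933, 0.577 and 0.426. A dimmer Hoxa10 probe set (1446408_at) went the other way in GasKO, by 0.16 (adjusted p = 0.319 when tested separately). It measured 4.45, 4.49 and 4.48 in WT, 4.61, 4.48 and 4.80 in GasKO and 4.45, 4.34 and 4.48 in hGAS. On it hGAS lay below GasKO without overlap, by -0.21 (adjusted p = 0.172). HoxA genes lay above their WT mean in 6 of 7 cases, with a median of 0.25 against 0.0067 for all genes tested. Outside HoxA, Hoxb9, Hoxb13, Hoxd8, Hoxd10 and Hoxd13 lay within 0.07 of WT in GasKO, Hoxd9 stood at 0.13 (adjusted p = 0.569) and Hoxd11 at -0.16 (adjusted p = 0.697).

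The 2 probe sets of Hoxa5, a gene that acts in lung and gut patterning, disagreed. The brighter probe set (1448926_at) measured 8.15 ± 0.13 in WT, 8.24 ± 0.07 in GasKO and 8.26 ± 0.13 in hGAS. The dimmer one (1443803_x_at, a design that can cross-hybridise) measured 5.61, 5.71 and 5.77 in WT, 5.23, 4.80 and 4.66 in GasKO and 6.01, 6.09 and 6.05 in hGAS. Its 3 groups did not overlap, with GasKO lowest and hGAS highest. When each probe set was tested separately, the dimmer probe set fell by 0.80 in GasKO against WT (SE 0.134, adjusted p = 0.00449) and stood 1.15 higher in hGAS than in GasKO (adjusted p = 0.000415). Both calls held when any 1 array was left out. In that fit 3 of the 23 Hox probe sets were called for GasKO against WT (11% of all probe sets), 1 for hGAS against WT (0.873%) and 4 for hGAS against GasKO (14.8%). The 1 was that of Hoxb6, which passed the filter through hGAS alone and had to differ, and it was also among the 4. Which transcript each probe set detects was not tested.

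**Figure D1:**
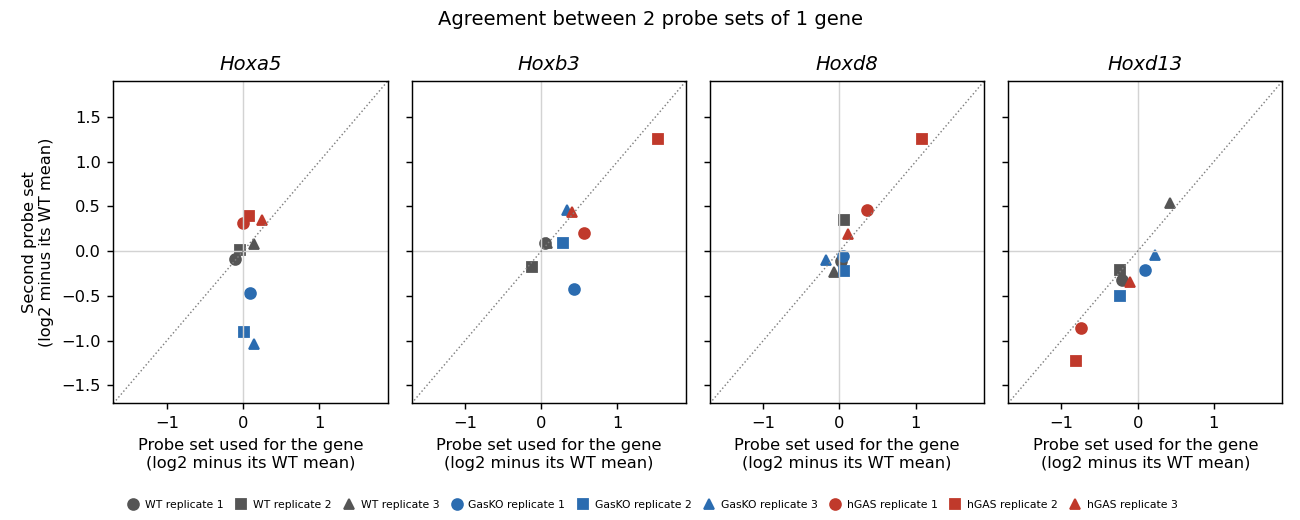
Log2 value minus the WT mean for a further probe set of Hoxa5, Hoxb3, Hoxd8 and Hoxd13 (vertical) and for the probe set used for that gene (horizontal) on the 9 arrays, with colours for genotype, shapes for replicates and a dotted diagonal for equal deviations. For Hoxa5 the 3 genotypes separate on the vertical axis alone, with differences from WT of -0.80 in GasKO and 0.35 in hGAS, while for Hoxb3 and Hoxd8 hGAS replicate 2 lies farthest up and right.

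Hoxb6 was above background on the hGAS arrays alone. Hoxb6, a gene of the middle of the HoxB cluster (1451660_a_at), measured 2.61, 3.30 and 2.51 in WT, 3.28, 3.30 and 3.33 in GasKO and 5.84, 6.77 and 5.10 in hGAS. The 3 hGAS arrays reached log2 4 and none of the other 6 did, so WT and GasKO were near background. Because Hoxb6 passed the filter through hGAS alone, it had to differ, and its call and size support nothing beyond the values on each array. The group means were 2.81 ± 0.43 in WT, 3.30 ± 0.02 in GasKO and 5.90 ± 0.83 in hGAS. Any fold depends on the background level, and hGAS replicate 2 was the highest array.

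Among all genes tested, 1.16% were called in hGAS against WT, 0.639% as higher and 0.523% as lower. Of 16 Hox genes 1 was called higher and 0 lower. The 1 was Hoxb6, whose difference the filter fixed, and of the other 15 limma called 0. At an unadjusted p under 0.05, limma gave 5 Hox genes higher (Hoxb6 among them) and 3 lower, against 14.2% of all genes. In 4 Hox genes (Hoxa11, Hoxb3, Hoxb6 and Hoxd8) all hGAS arrays lay above all WT arrays, 3 without Hoxb6, against 9.35% of all genes. In 3 (Hoxb13, Hoxd10 and Hoxd11) they lay below, against 8.36%. The comparisons of GasKO and hGAS with WT use the same 3 WT arrays.

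Of the other HoxB genes of lower number, Hoxb3 was the 1 tested. Hoxb3, a gene of the hindbrain and pharyngeal region (1456229_at), measured 6.05, 5.88 and 6.08 in WT, 6.43, 6.29 and 6.33 in GasKO and 6.56, 7.54 and 6.40 in hGAS. Both mutant groups lay above WT, and hGAS replicate 2 stood highest. Hoxb3 differed from WT by 0.83 in hGAS (SE 0.243, adjusted p = 0.149) and by 0.35 in GasKO (adjusted p = 0.405). Without hGAS replicate 2 the hGAS difference was 0.48 and the GasKO difference was called (adjusted p = 0.0387), the GasKO value itself being the same. The dimmer Hoxb3 probe set (1427605_at) overlapped between WT (4.19, 3.93 and 4.19) and GasKO (3.68, 4.19 and 4.56) and stood at 4.31, 5.36 and 4.54 in hGAS.

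Hoxb5, next to Hoxb6, did not pass the filter, since 2 arrays reached log2 4, and was not tested. It measured 3.77, 3.82 and 3.88 in WT, 3.88, 3.94 and 3.97 in GasKO and 5.07, 5.72 and 3.80 in hGAS. Replicates 1 and 2 of hGAS stood above all other arrays and replicate 3 did not. Hoxb9, a thoracic and posterior gene (1452317_at), measured 7.03 in WT, 6.97 in GasKO and 7.25 in hGAS, 0.21 above WT (adjusted p = 0.334) and 0.28 above GasKO (adjusted p = 0.0693).

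Hoxd8 (1431099_at), of the same paralog group as Hoxb8, measured 5.22, 5.27 and 5.13 in WT, 5.26, 5.27 and 5.03 in GasKO and 5.57, 6.29 and 5.32 in hGAS. All hGAS arrays lay above all others. The difference from WT of 0.52 (adjusted p = 0.296) was 0.24 without hGAS replicate 2. A further Hoxd8 probe set (1433638_s_at) measured 3.56, 4.01 and 3.43 in WT, 3.62, 3.44 and 3.57 in GasKO and 4.12, 4.92 and 3.86 in hGAS, again highest on hGAS replicate 2.

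**Figure D2:**
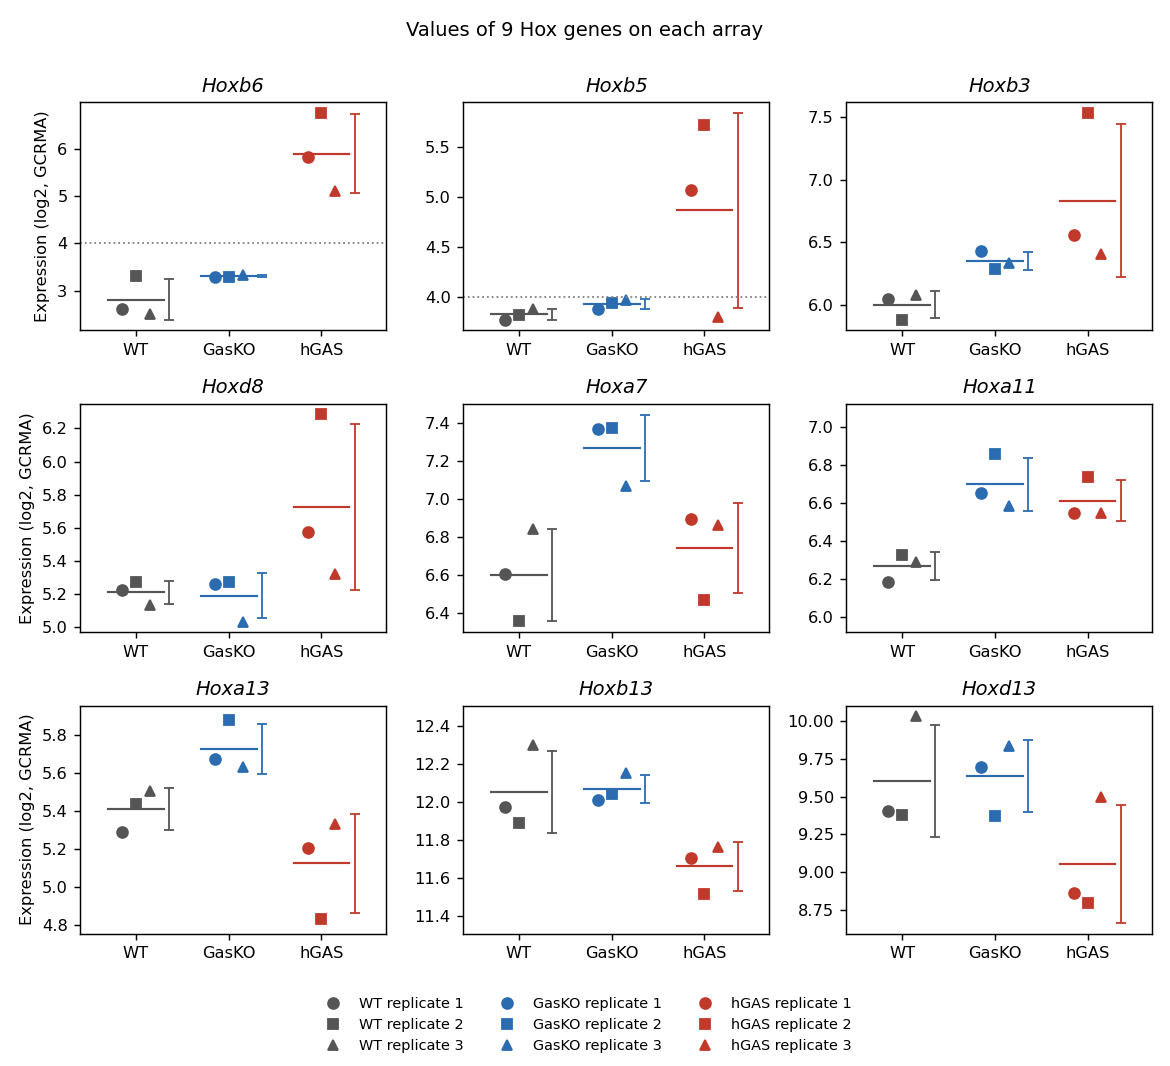
Log2 value of 9 Hox genes on each array, by genotype, with circles for replicate 1, squares for replicate 2 and triangles for replicate 3, a horizontal line at the mean, a bar of ± SD (n = 3) and a dotted line at log2 4. Hoxb6 exceeds the dotted line on the 3 hGAS arrays only, between 5.10 and 6.77, while Hoxa7 is highest in GasKO, between 7.07 and 7.37.

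Hoxb13 and the HoxD genes from Hoxd9 to Hoxd13 stood lower in hGAS than in WT without passing the test, while Hoxb9, as given, stood higher. Hoxb13, which is expressed in the distal colon and the prostate (1419576_at), measured 11.98, 11.89 and 12.30 in WT, 12.01, 12.04 and 12.16 in GasKO and 11.71, 11.52 and 11.77 in hGAS. All hGAS arrays lay below all WT and GasKO arrays. The difference from WT was -0.39 (SE 0.104, adjusted p = 0.116). Hoxd10, a posterior HoxD gene (1418606_at), measured 7.38, 7.32 and 7.69 in WT and 6.59, 7.01 and 7.22 in hGAS, a difference of -0.52 (adjusted p = 0.271). Hoxd11 stood at -0.38 (adjusted p = 0.474), and Hoxd9 at -0.14 (adjusted p = 0.684). The HoxD median was -0.38, with 4 of 5 genes below 0, and the HoxB median 0.52, or 0.21 without Hoxb6, where all genes tested had a median of 0.0080.

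Of the HoxA genes on hGAS arrays, Hoxa11, as given, stood 0.35 above WT without overlap, with an unadjusted p of 0.00507 in limma. The other 6 lay closer to WT on the probe set used for each gene. Hoxa3, Hoxa5, Hoxa9 and Hoxa10 differed by -0.07, 0.11, 0.03 and -0.16, with adjusted p of 0.751, 0.635, 0.953 and 0.501. Hoxa7 stood at 0.14 (adjusted p = 0.742) and Hoxa13 at -0.29 (adjusted p = 0.384). None of these 6 was called by limma, and none had an unadjusted p under 0.05. The dimmer Hoxa5 probe set, tested separately, stood at 0.35 without overlap (adjusted p = 0.286).

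Hoxd13, a gene of the hindgut and the digits (1440626_at), measured 9.40, 9.38 and 10.03 in WT, 9.70, 9.37 and 9.84 in GasKO and 8.86, 8.80 and 9.50 in hGAS. Replicate 3 of hGAS overlapped both other groups. The hGAS difference was -0.55 from WT (adjusted p = 0.301) and -0.58 from GasKO (adjusted p = 0.110). With the replicate number as a block over all 9 arrays, limma gave an adjusted p of 0.00449 against GasKO. The labels do not give this pairing, which was read from these same data, so this p-value is no separate support. A further Hoxd13 probe set (1422239_at) stood at -0.81 from WT (adjusted p = 0.206) and -0.56 from GasKO (adjusted p = 0.196).

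Set directly against GasKO, hGAS had 4 of 16 Hox genes called, against 16.6% of all genes tested. Hoxb6, whose difference the filter fixed, was the 1 called higher, against 8.05% of all genes, and Hoxa7, Hoxa13 and Hoxb13 were the 3 called lower, against 8.51%. Hoxa13, at 5.21, 4.83 and 5.33 in hGAS, lay below all GasKO arrays, and fell by 0.60 (SE 0.136, adjusted p = 0.0150), lost only without GasKO replicate 2 (adjusted p = 0.0517) among the 9 fits that left out 1 array. Hoxb13 fell by 0.41 (adjusted p = 0.0267) and Hoxa7 by 0.53 (adjusted p = 0.0459). The groups did not overlap in 3 Hox genes higher (Hoxb6, Hoxb9 and Hoxd8; 18.2% of all genes) and 3 lower (Hoxa7, Hoxa13 and Hoxb13; 18.5%). At an unadjusted p under 0.05, limma gave 3 Hox genes higher and 5 lower, against 31.2% of all genes. Of those not called, Hoxd8 stood at 0.54 (adjusted p = 0.113), Hoxb3 at 0.48 (0.212), Hoxd10 at -0.46 (0.155) and Hoxa11 at -0.08 (0.590).

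The Hoxb13 and Hoxa7 calls depended on single arrays. Hoxb13 lost its call without any one of GasKO replicates 1, 2 and 3 and hGAS replicates 1 and 2, with adjusted p from 0.0585 to 0.0965, and stood at -0.33 without hGAS replicate 2. Hoxa7 lost its call without WT replicate 1, GasKO replicate 1 or 2, or hGAS replicate 1, 2 or 3, with adjusted p from 0.063 to 0.138, and stood at -0.39 without hGAS replicate 2. Without GasKO replicate 2, Hoxd10 was called lower (-0.66, adjusted p = 0.045). Without hGAS replicate 3, Hoxb9 (0.35, adjusted p = 0.0414) and Hoxd8 (0.74, adjusted p = 0.0359) were called higher and Hoxd13 (-0.81, adjusted p = 0.033) lower.

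**Figure D3:**
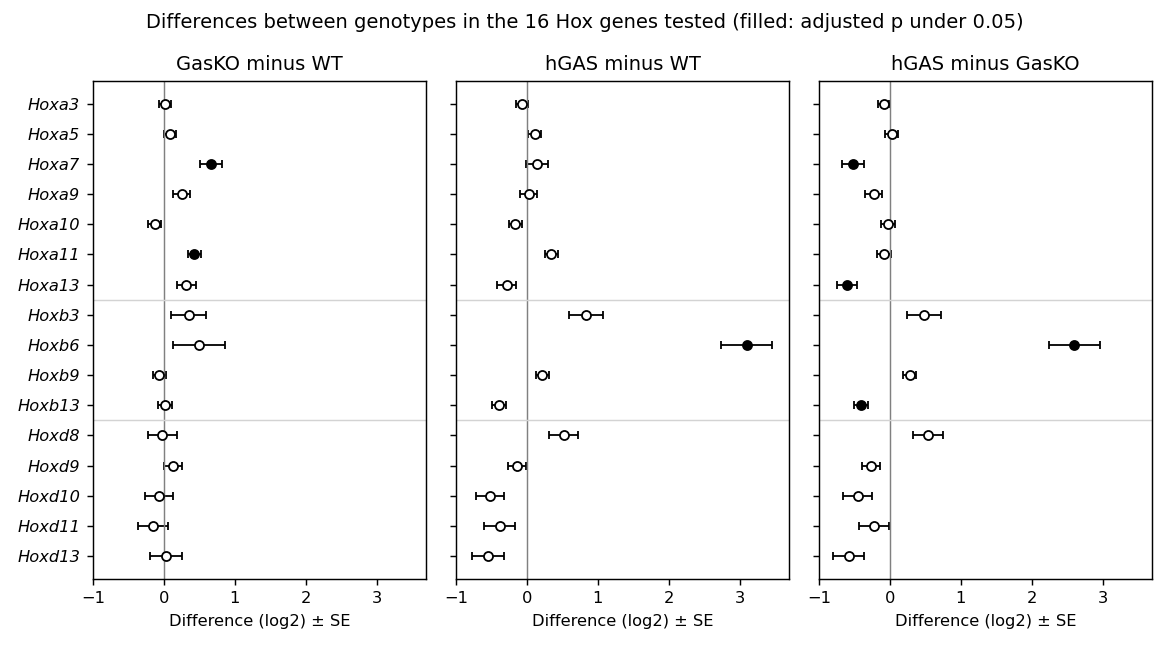
Log2 difference of the 16 Hox genes tested in the 3 comparisons, with bars of ± SE from limma and filled points where the adjusted p was under 0.05. Filled points are Hoxa7 and Hoxa11 for GasKO against WT, Hoxb6 for hGAS against WT, and Hoxb6, Hoxa7, Hoxa13 and Hoxb13 for hGAS against GasKO.

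Read along the paralog groups, the Hox genes of higher number lay mostly below WT and GasKO in hGAS. Paralog groups 9 to 13 held 10 tested genes, of which 7 lay below 0 against WT (median -0.22) and 9 against GasKO (median -0.25). The median over all genes tested was 0.0080 against WT and 0.0014 against GasKO. Leaving out each array in turn gave 7 to 8 of 10 below 0 against WT and 8 to 9 against GasKO.

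Paralog groups 1 to 8 held 6 tested genes, and their summary rests in part on Hoxb6. Against WT in hGAS, 5 of 6 lay above 0 with a median of 0.33, and without Hoxb6 4 of 5 did with a median of 0.14. Against GasKO, 4 of 6 lay above 0 with a median of 0.25, and without Hoxb6 3 of 5 did with a median of 0.02. With all 6 genes the count against GasKO was 3 without GasKO replicate 2 or without hGAS replicate 3, and the median was 0.0835 without hGAS replicate 2. No test was made of these counts.

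In GasKO against WT, 5 of 6 lower-numbered genes (median 0.22, or 0.09 without Hoxb6) and 6 of 10 higher-numbered genes (median 0.02) lay above 0, where all genes tested had a median of 0.0067. The second count ran from 4 of 10, without WT replicate 1, WT replicate 2 or GasKO replicate 3, to 8 of 10 without WT replicate 3. The first was 6 of 6 without WT replicate 2 and 4 of 6 without WT replicate 1. The median size of the Hox differences, without regard to sign, was 0.129 in GasKO against WT, where the median over all genes was 0.109. It was 0.316 in hGAS against WT, where that over all genes was 0.0811, and 0.343 in hGAS against GasKO, where it was 0.123. Without Hoxb6 these sizes were 0.126, 0.287 and 0.279.

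The array hGAS replicate 2 often stood outermost. It held the highest or lowest value of the 9 arrays in 9 of 16 Hox genes, against 25.1% of all genes tested. It was highest for Hoxb3, Hoxb6, Hoxb9 and Hoxd8 and lowest for Hoxa3, Hoxa9, Hoxa13, Hoxb13 and Hoxd13. WT replicate 3 was outermost in 6 of 16, against 26.7% of all genes, and was the highest array for Hoxa10, Hoxb13, Hoxd10, Hoxd11 and Hoxd13.

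**Figure D4:**
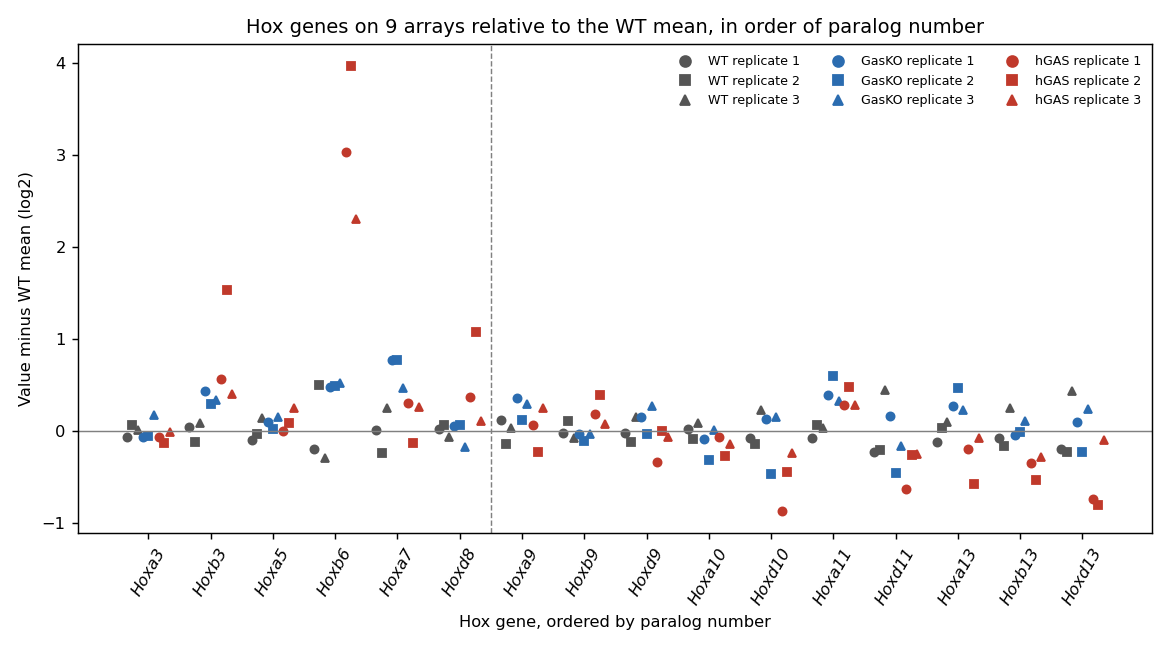
Log2 value minus the WT mean for the 16 Hox genes tested on each of the 9 arrays, in the order of paralog group, with a dashed line between groups 8 and 9. On the hGAS arrays Hoxb6 lies far above 0, the points right of the line lie mostly below 0, and replicate 2 (squares) is often outermost.

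Of the Hox cofactors, 1 of 6 tested was called in GasKO against WT and 2 of 6 in hGAS against GasKO, against 12.1% and 16.6% of all genes. Of these, Pbx3, a partner that raises the DNA binding of Hox proteins, rose by 0.25 in GasKO (SE 0.054, adjusted p = 0.0145), from 8.97 ± 0.07 to 9.23 ± 0.04, and stood at 8.98 ± 0.04 in hGAS. Against GasKO, 2 of 6 fell in hGAS, Pbx3 by 0.25 (adjusted p = 0.0128) and Meis1, another partner, by 0.48 (adjusted p = 0.0067). The Pbx3 calls held in 7 of 9 and 8 of 9 fits that left out 1 array (adjusted p up to 0.0622 and 0.0533), and the Meis1 call in 9 of 9. With the mean of its probe sets, the Meis1 difference was -0.19 and not called (adjusted p = 0.102). None of the 6 was called in hGAS against WT by limma. Cdx2, a caudal-type factor known to act on Hox genes, had values of 8.54 ± 0.50 on WT arrays, 9.03 ± 0.06 on GasKO arrays and 9.46 ± 0.20 on hGAS arrays and was not called (adjusted p = 0.167 and 0.0761 against WT), and it is named after its values were seen.

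Of the antisense and noncoding genes of the clusters, Hoxb5os, an antisense transcript beside Hoxb5, fell by 0.72 in GasKO (SE 0.118, adjusted p = 0.00361), from 8.18 ± 0.20 to 7.46 ± 0.20, and held this call without any 1 array. It was the 1 called of 3 such genes tested, in GasKO against WT (12.1% of all genes called) and in hGAS against GasKO (16.6%). In hGAS it stood at 7.91 ± 0.03, which was 0.45 above GasKO (adjusted p = 0.0292), and that call was lost in 5 of 9 fits that left out 1 array (adjusted p up to 0.105), among them the fit without hGAS replicate 2 (0.063). Hoxa11os and Hoxd3os1, the other two tested, were not called in any comparison.

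Of 20 Polycomb genes tested, 4 rose in GasKO and 0 fell, against 6.64% and 5.48% of all genes, among them Ezh1, a histone methyltransferase, by 0.74 (adjusted p = 0.00232) and Jarid2, a subunit that guides the complex, by 0.39 (adjusted p = 0.0266). On probe sets designed for 1 transcript, Jarid2 stood at -0.02, and it kept its call in 5 of 9 fits that left out 1 array (adjusted p up to 0.101), Ezh1 in 9 of 9. The other two, Rbbp4 (0.19) and Phf1 (0.45), kept theirs in 4 of 9 and 2 of 9 such fits. Ezh1 and Jarid2 fell in hGAS against GasKO, by 0.76 and 0.43, the only 2 of 20 called, near the 8.51% of all genes called lower. Jarid2 stood at -0.13 (adjusted p = 0.246) when probe sets that can match several transcripts were left out. In this list limma called none of the 20 in hGAS against WT. Of 9 Trithorax genes 1 was called in hGAS against GasKO, against 16.6% of all genes. It was Kdm6b, a histone demethylase, which fell by 0.46 (adjusted p = 0.0239). Its call was kept in 6 of 9 such fits and lost with the mean of its probe sets (-0.26, adjusted p = 0.0602). None of the 9 was called against WT by limma.

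Genes of retinoic acid supply, a signal known to act on Hox genes, went different ways. Of 10 tested, limma called 1 higher and 1 lower in GasKO against WT, against 6.64% and 5.48% of all genes. In hGAS against WT, 1 was called higher (0.639% of all genes) and 0 lower. Set against GasKO, 2 were called higher and 1 lower in hGAS (8.05% and 8.51% of all genes). Aldh1a1 rose in hGAS by 1.34 against WT (adjusted p = 0.0052) and by 0.94 against GasKO (adjusted p = 0.00283). Aldh1a2, by contrast, fell by 1.07 in GasKO (adjusted p = 0.00557), and Aldh1a3 rose by 0.60 in GasKO (adjusted p = 0.0407). In hGAS against GasKO, Aldh1a2 stood at 1.22 (adjusted p = 0.00223) and Aldh1a3 at -0.65 (adjusted p = 0.0237). The Aldh1a1 and Aldh1a2 calls held in 9 of 9 fits that left out 1 array. The Aldh1a3 call held in 4 of 9 for GasKO against WT (adjusted p up to 0.141). For hGAS against GasKO it held in 6 of 9 (adjusted p up to 0.0877). All 3 encode enzymes that make retinoic acid.

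Among 8 factors that mark stretches of the intestine, 2 were called higher in hGAS against WT, against 0.639% of all genes. They were Isx and Osr2, and Osr2 leaned on hGAS to pass the filter, so the count of 2 supports nothing. Isx, an intestinal homeobox gene, rose by 2.90 against WT (adjusted p = 0.0488), from 5.01 ± 1.21 to 7.91 ± 0.67, and lost this call when any 1 array was left out (adjusted p up to 0.145). In hGAS, Osr2, a zinc-finger factor, stood 3.37 above WT (adjusted p = 0.0334) and 3.45 above GasKO. It kept the call against WT in 2 of 9 such fits (adjusted p up to 0.109). WT and GasKO were both near background, so Osr2 leaned on hGAS to pass the filter. Its call and size support nothing beyond the hGAS signal itself. None of the 8 was called lower by limma, and the median difference of the list was -0.03. The mean over the 8 genes of the value minus the WT mean was 0.63, 1.12 and 0.49 on hGAS arrays, between -0.14 and 0.08 on WT and between -0.07 and 0.15 on GasKO arrays. Without Isx and Osr2 it lay between -0.14 and 0.05 on hGAS arrays. For the lower-numbered Hox genes the same measure was 0.70, 1.06 and 0.55 on hGAS, -0.05 to 0.03 on WT and 0.24 to 0.29 on GasKO, so that hGAS replicate 2 was highest for both. Without Hoxb6 it was 0.23, 0.48 and 0.20 on hGAS, -0.06 to 0.08 on WT and 0.19 to 0.26 on GasKO, so hGAS and GasKO overlapped. For the higher-numbered genes it was -0.27, -0.23 and -0.06 on hGAS, -0.09 to 0.16 on WT and -0.05 to 0.14 on GasKO.

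Genes of salt transport in the distal colon fell in both mutants in part. Of 10 tested, 5 fell in GasKO, against 5.48% of all genes, among them Fxyd4, by 1.64, and Scnn1g, by 1.56. Against WT 3 fell in hGAS, where 0.523% of all genes did, among them Scnn1g, by 1.68 (adjusted p = 0.00366). Both Fxyd4 and Scnn1g are subunits or partners of ion transporters. The mutants differed in Sgk1, also of this list and lower in GasKO than in WT, which stood 0.98 higher in hGAS than in GasKO (adjusted p = 0.00112). The list of 10 stood at -0.63 to -0.46 on GasKO arrays and -0.53 to -0.45 on hGAS arrays relative to the WT mean. The position along the colon from which the mucosa came is not given in the sources used here, and the part of these markers in the Hox values was not tested.

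Marker genes of other cell types were set beside these values. Of all genes tested, limma called 6.64% higher in GasKO against WT, 0.523% lower in hGAS against WT and 8.51% lower in hGAS against GasKO. In whole mucosa, fewer cells of a type and less RNA per cell cannot be told apart. Of 5 B cell markers, 3 rose in GasKO (Cd79a, Ms4a1 and Cr2, calls kept in 4, 6 and 2 of 9 fits that left out 1 array). Against WT 3 fell in hGAS (Fcmr, Cd79a and Cd79b, kept in 9, 2 and 1 of 9). All 5 fell in hGAS against GasKO, with the list mean at -0.24 to 0.39 on WT, 0.56 to 1.25 on GasKO and -1.76 to -1.17 on hGAS arrays. Of 7 smooth muscle markers limma called none in any comparison, with the list mean between -0.16 and 0.11 on all 9 arrays, and that of 7 fibroblast markers lay between -0.11 and 0.14. In the fibroblast list, Pdgfra and Dcn rose in GasKO (0.38 and 0.26) and both fell against GasKO in hGAS. The other 5 were called in neither comparison. The list median was 0.10 in GasKO against WT and 0.01 in hGAS against GasKO, so the list did not fall with those 2. Pdgfra kept its GasKO call in 9 of 9 fits that left out 1 array and Dcn in 3 of 9. Of 7 epithelial markers, Epcam and Krt18 rose in GasKO, by 0.35 and 0.26, calls kept in 9 of 9 and 2 of 9 such fits. Both fell in hGAS against GasKO, by 0.36 and 0.27, kept in 9 of 9 and 5 of 9. The other 5 epithelial markers were called in neither comparison. Their list as a whole had a median of 0.01 in GasKO against WT and -0.07 in hGAS against GasKO. Of 4 plasma cell markers 3 rose in GasKO, and of 5 myeloid markers 2 rose in GasKO and 3 fell in hGAS against GasKO. Of 5 endothelial and 4 neuron and glia markers limma called none, and of 5 T cell markers none passed the filter. The part of these cell types in the Hox values was not tested.

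**Figure D5:**
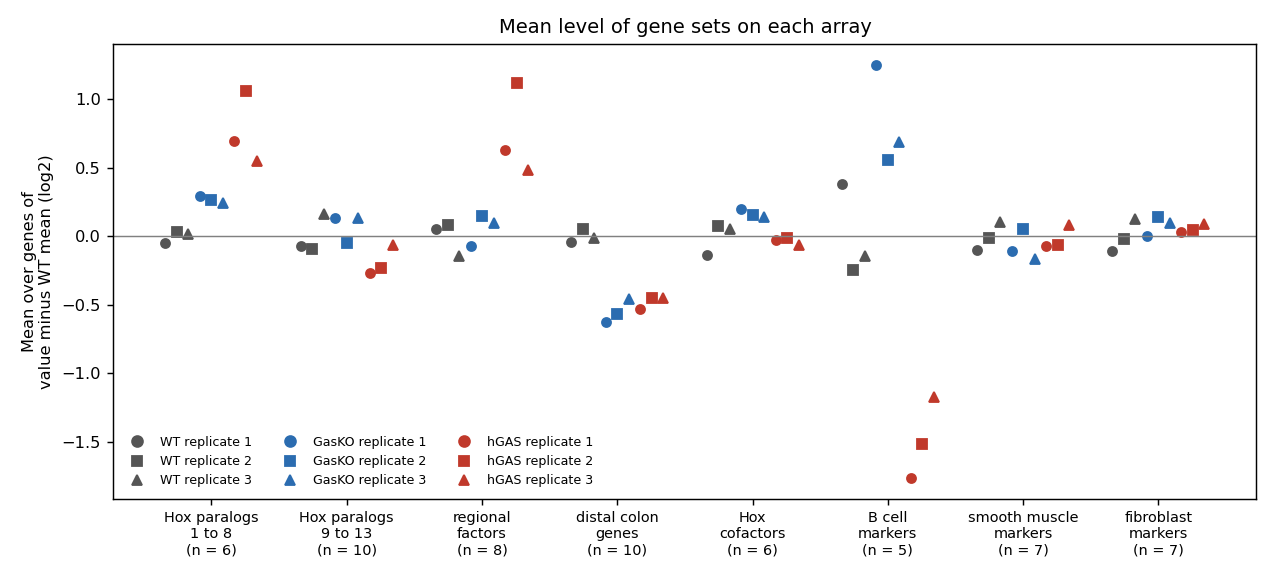
Mean over the genes of a list of the log2 value minus the WT mean, on each of the 9 arrays, for Hox paralog groups 1 to 8 (6 genes) and 9 to 13 (10 genes), regional factors, distal colon genes, Hox cofactors and markers of B cells, smooth muscle and fibroblasts. The lower-numbered Hox genes and the regional factors are highest on hGAS replicate 2, at 1.06 and 1.12, values that rest on Hoxb6 and on Isx and Osr2, and the smooth muscle list stays between -0.16 and 0.11.

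Of 14 genes tested that flank the clusters, 1 was called in GasKO against WT, against 12.1% of all genes, and 3 in hGAS against GasKO, against 16.6%. Atp5g1 fell by 0.21 in GasKO, and in hGAS against GasKO Skap2 and Tax1bp1 fell, by 0.28 and 0.23, while Mtx2 rose by 0.30. These calls held in 3 or 4 of 9 fits that left out 1 array. The HoxB cluster lies on the same chromosome as Gast. Of 53 protein-coding genes tested between HoxB and Gast, 9 were called in GasKO against WT (17%), against 14.6% of 946 genes tested on that chromosome.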

How the data were processed

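Per the submitters' processing notes, the authors made the deposited log2 values with GCRMA (version not stated), which corrects background from probe sequence, normalises by quantiles and summarises probe sets. Scanner files were not analysed here. Values lay between 0.881 and 15.1 and array medians between 4.13 and 4.16. In the platform annotation 34945 probe sets had 1 gene, 932 had several and 9160 had none, and 64 were controls. The number of arrays limits the precision.

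The probe set with the highest mean stood for each gene, which was tested if at least 3 arrays reached log2 4. All 9 arrays and all genes entered 1 model of genotype, without covariates, in limma 3.58.1 (lmFit, eBayes with trend) in R 4.3.3, with data.table version 1.17.8. It had 6 residual and 3.47 prior degrees of freedom. Tests were 2-sided, Benjamini-Hochberg adjusted over 11273 genes, and called at an adjusted p under 0.05. A group mean under log2 4 is near background. The script was tested on simulated data first. Tables were handled with pandas 2.3.3 and figures with matplotlib 3.10.9 in Python 3.11.15.

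Same-numbered samples of hGAS and GasKO deviated together, with correlations of 0.117, 0.201 and 0.267, so the numbers were taken to pair those groups from the data. For GasKO and WT (0.15, -0.00557 and 0.145) and for hGAS and WT (0.254, 0.0838 and 0.203) they were not.

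The members and lists were chosen with earlier results of these data known, and the lists are no independent evidence. All Hox genes that passed could be named, with full values for those called or whose probe sets disagree. Others were named with their ranges, and up to 4 called genes with the smallest p were named per list and comparison. Alternatives covered the filter, array scaling, choice of probe sets, eBayes settings, fits to 6 arrays, a replicate block and leaving out each array. The 33 Hox genes were matched to RefSeq by Entrez number.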

Additional observations from a re-analysis of the deposited data

Results flagged for a closer look

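The probe set annotated to both Hoxb8 and Hoxb7 (1452493_s_at) lay outside the genes tested, since it names more than 1 gene. It measured 5.18 on hGAS replicate 2, where the highest WT array was at 2.17, a signal over the control level by more than log2 1. The other 2 hGAS arrays stood at 2.17 and 2.26 and the GasKO arrays between 2.15 and 2.16, so the signal was on a single array. The same array was the highest of the 9 for Hoxb3, Hoxb6, Hoxb9 and Hoxd8, and for Hoxb5 at 5.72, which was not tested. The 2 probe sets annotated to both Hoxd4 and Hoxd3 were also highest on it, at 3.45 and 2.44, below log2 4.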

How the results depend on the processing

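Of 20 alternatives per comparison, the call of Hoxa11 in GasKO held in 19, of Hoxa13 in hGAS against GasKO in 19 of 20, of Hoxa7 in GasKO in 16 of 20, of Hoxb13 in 14 of 20 and of Hoxa7 in hGAS against GasKO in 10 of 20. With the mean of a gene's probe sets, Hoxa5 in GasKO turned from 0.09 to -0.36 (adjusted p = 0.0271), since its dimmer probe set fell. On probe sets designed for 1 transcript, Jarid2 in GasKO turned from 0.39 to -0.015. The cause was not tested.

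The count of called genes was 2177 probe sets for GasKO against WT and 2928 for hGAS against GasKO when each probe set was tested. For hGAS against WT it was 58 with no filter, 27 with only the 6 arrays compared and 283 with the replicate block, against 131. Leaving out 1 array gave 888 to 1375 for GasKO against WT, 26 to 104 for hGAS against WT and 1219 to 1996 for hGAS against GasKO. The count of Hox genes called ran from 0 to 3, was 1 throughout, and ran from 2 to 6 in the same order. In hGAS against WT it was 0 on probe sets designed for 1 transcript, which left Hoxb6 without a value, 0 with only 6 arrays and 3 with the replicate block (Hoxb6, Hoxb13 and Hoxd13, with 2.51% of all genes called). With no filter it was 2 in hGAS against GasKO. With the block it was 5 there, and 3 in GasKO against WT, adding Hoxa9, while 18.5% and 13.8% of all genes were called. The block rests on a pairing that the labels do not give. Alternatives added after seeing the data covered the list genes, the Hoxa5 probe set, the paralog counts and leaving out Hoxb6, or Isx and Osr2. Signal near background limits Hoxb5, Hoxb6 and the HoxC genes.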
